A study of Mus musculus with 12 samples.

Results

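C4-HD is a hormone-dependent mouse mammary carcinoma that is passaged in BALB/c mice and kept growing with medroxyprogesterone acetate (MPA), a synthetic progestin. The comparison described here sets tumours taken 24 h after mifepristone (MFP), an antagonist of the progesterone receptor, against tumours still exposed to MPA. Its differences rest on 4 of the 12 arrays of the series, chosen by their labels: 2 arrays named for 24 h of MFP and 2 named for MPA. The spread used to test them was pooled over all 12 arrays. All groups came from tumours first grown under MPA. For MFP the MPA pellet was taken out at a tumour area of 50 mm2 and MFP was given subcutaneously at 10 mg/kg/day, so the comparison changes both agents at once. The other groups, with 2 arrays each, were MFP for 6 h, 12 h and 48 h and tumours given saline for 48 h that are named "no MPA". RNA came from formalin-fixed, paraffin-embedded tumours, 200 ng per array, and was hybridised to an oligonucleotide array of the mouse transcriptome (Affymetrix). The labels call the 2 arrays of a group independent but tie none to a separate animal. The p-values therefore measure the spread between arrays of the same group, pooled over the 6 groups, which may be partly technical. The SD of the difference between a group's 2 arrays was 0.631 for MFP 24 h and 0.571 for MPA. It was 0.436 for "no MPA", 0.465 at 6 h, 0.427 at 12 h and 0.572 at 48 h. Pooling with quieter groups can make the p-values of this comparison too small. No age, sex or number of animals was given in the sources used here, and the MFP times are those of the array labels.

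Progestins drive division of mammary epithelium through the progesterone receptor, a ligand-activated transcription factor, partly in the receptor-bearing cells and partly through paracrine signals such as RANKL and WNT4. Mifepristone occupies the same receptor and also blocks the glucocorticoid receptor. When a cell leaves the division cycle, promoters of replication genes are held down through E2F sites and those of mitotic genes through the cell cycle homology region (CHR), an element bound by the DREAM and MuvB complexes. A tumour that regresses also changes in its share of epithelium, stroma and leukocytes, and in bulk RNA fewer cells of a type and less RNA per cell cannot be told apart.

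Each deposited value is on the log2 scale relative to the average of both MPA arrays taken before the log, as 45099 of 45101 probe sets showed within 0.0001. A value therefore says how far an array lay from the MPA arrays and not how strongly a gene was expressed, so the tissue label could not be checked by the level of epithelial markers, and no 2 genes are compared by level. The MPA arrays mirror each other around 0 by construction. Subtracting 1 constant per probe set changes neither a difference between groups nor the spread within one. Of 18193 genes tested, 1591 (8.75%) differed between 24 h of MFP and MPA at an adjusted p under 0.05 (limma), 827 higher (4.55%) and 764 lower (4.2%). The median difference over all genes was -0.0347 on the log2 scale. The count depended strongly on the model: it was 117 from the 4 arrays alone and 28 after quantile normalization of the 12 arrays, which widens the narrow MPA arrays. The differences from the 4 arrays alone equal those of the main model by construction, so their sign could not turn. After quantile normalization the sign was the same for the 1591 genes. For comparison, MFP for 6 h gave 228 calls against MPA (1.25%; 0.94% lower) and MFP for 12 h gave 778 (4.28%; 2.62% lower). Between the "no MPA" and MPA arrays limma called 0 genes, with 1198 at an unadjusted p under 0.05.

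Transcripts of liver stood highest in both 24 h arrays, and they were set apart before the tumour changes were read. The median over 24 genes for proteins that hepatocytes secrete (albumin, apolipoproteins, fibrinogen) was 3.35 and 3.95 at 24 h of MFP against 0.77 and -1.80 under MPA, and it lay between -1.51 and 1.16 in the other 8. MPA replicate 1 (0.77) and MFP 6 h replicate 1 (1.16) also lay above the remaining arrays outside 24 h, so the MPA arrays differed in it. Of these 24 genes 22 rose, and 8 did without MFP 24 h replicate 2. Hepatocyte metabolic enzymes behaved alike, with 21 of 25 higher (15 without that array) and a median difference of 4.12. The hepatocyte transcription factor Hnf4a read 0.20 and -0.23 in the MPA arrays and 2.60 and 2.16 in the 24 h arrays (difference 2.40 ± 0.23 (SE), adjusted p = 0.00068), and the hepatocyte nuclear receptor Nr1i3 differed by 2.54 ± 0.25 (SE), adjusted p = 0.00071. Genes of Kupffer cells and liver sinusoidal endothelium were higher for 5 of 15 (2, 2, 7 and 1 without MPA replicate 1, MPA replicate 2, MFP 24 h replicate 1 and MFP 24 h replicate 2), among them the Kupffer cell receptor Vsig4 (2.23 ± 0.25 (SE), adjusted p = 0.001), which read 2.17 above MPA at 48 h as well.

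Pancreatic enzyme transcripts divided the 24 h arrays. Their median over 19 genes was 0.69 in replicate 1 and 6.45 in replicate 2, against 0.45 and -0.66 in the MPA arrays, and 1 of the 19 rose. Without replicate 1 of the 24 h arrays, 19 of 19 did. Skeletal muscle genes had medians of 0.37 and 0.64 at 24 h and 0 of 22 rose. A gene was set apart where it was in a list for liver, pancreas or muscle, or where its values over the 12 arrays correlated above 0.8 with the mean of the hepatocyte, pancreas or muscle list. This took out 511 genes, among them 283 of the 827 rises and 0 of the 764 falls, and left 544 rises and 764 falls. The 0 is fixed by the rule, since a gene low at 24 h can hardly correlate positively with lists that are high there. A tumour gene that rose at 24 h alone can be taken out as well. The hepatocyte list mean itself correlates 0.879 with being a 24 h array. Correlation alone took out 393 of the 511 genes, and whether these came from another organ was not tested. Whether liver cells or free liver RNA supplied the liver transcripts was not tested. Another 68 of the 544 rises had a liver correlation between 0.7 and 0.8, just outside the rule, and each such gene named below is marked as close to it.

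**Figure D1:**
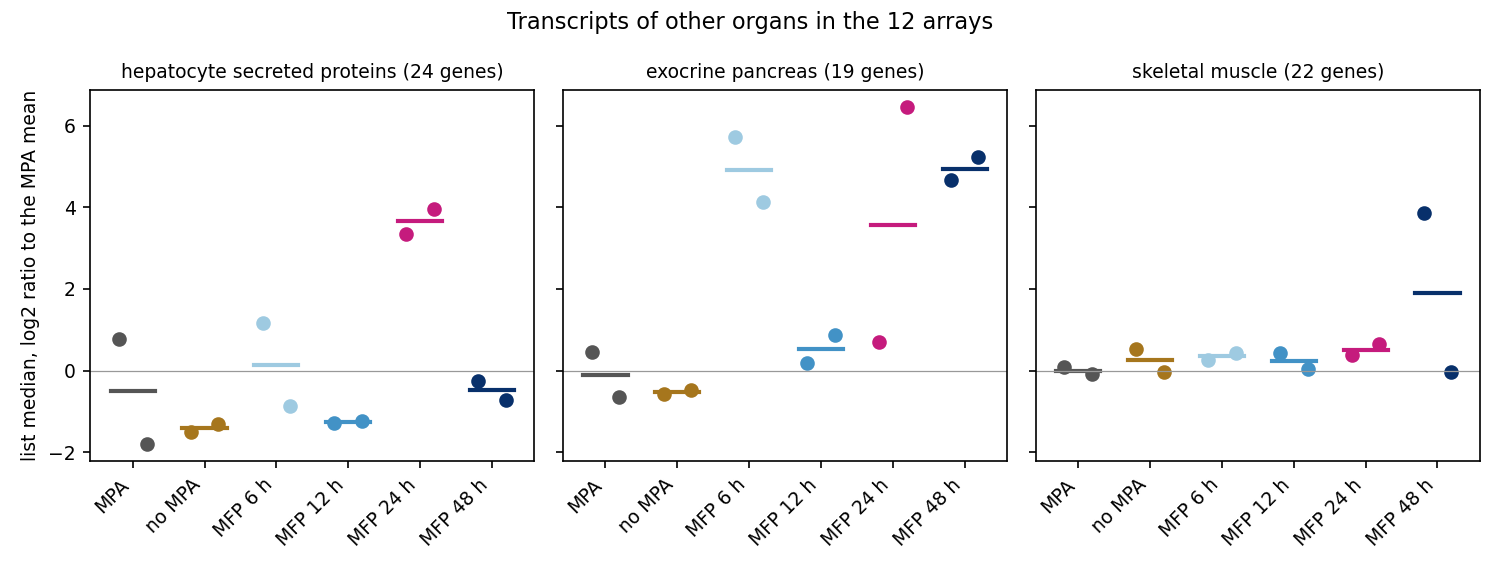
Median value (y axis, log2 ratio to the MPA mean) of 3 gene lists for other organs in each of the 12 arrays (points), with the mean of each group's 2 arrays as a line and the groups on the x axis. Hepatocyte genes are high in both 24 h arrays (3.35 and 3.95), while pancreas genes are high in replicate 2 of them alone (6.45 against 0.69) and in the 6 h and 48 h arrays.

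RNA quality moved with time under MFP. The control probe sets for the 3′ and 5′ ends of Actb differed by -0.072 and 0.053 in the MPA arrays, 0.354 and 0.504 at 24 h, and 0.338 to 0.594 at 12 h and 48 h. The median over all probe sets was -0.025 and -0.11 in the 24 h arrays. The part of these shifts in the results below was not tested. Counts of a gene list with 1 array left out are always given in the order MPA replicate 1, MPA replicate 2, MFP 24 h replicate 1 and MFP 24 h replicate 2. Every list count at 24 h against MPA below stands beside the shares over all genes, 4.55% higher and 4.2% lower. A count near these shares says little about its list.

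Genes of mitosis fell together at 24 h. Of 26 genes for spindle motors and cytokinesis 20 fell and 0 rose, with a median log2 difference of -1.60 against -0.0347 over all genes, and 26 of 26 had both 24 h arrays below both MPA arrays, an ordering met by 27.3% of all genes. With 1 array left out the count was 16, 14, 13 and 13. Of 18 genes for the chromosomal passenger complex and the spindle checkpoint 16 fell (median -1.61; 10, 11, 14 and 10 with 1 array left out), and 0 rose. Of 16 genes for mitotic entry 12 fell (median -1.37; 9, 5, 9 and 8). Kinetochore and centromere genes fell for 15 of 22 (median -1.20; 7, 9, 10 and 10), and condensin, cohesin and topoisomerase genes for 12 of 17 (median -1.27; 9, 8, 8 and 10). The share of falls over all genes was 4.2%. With the hepatocyte list mean as a covariate, the spindle median was -1.90 and the passenger and checkpoint median -1.53, but 0 and 1 of their genes passed, as the covariate follows the 24 h arrays (correlation 0.879) and raised the median standard error from 0.268 to 0.543.

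**Figure D2:**
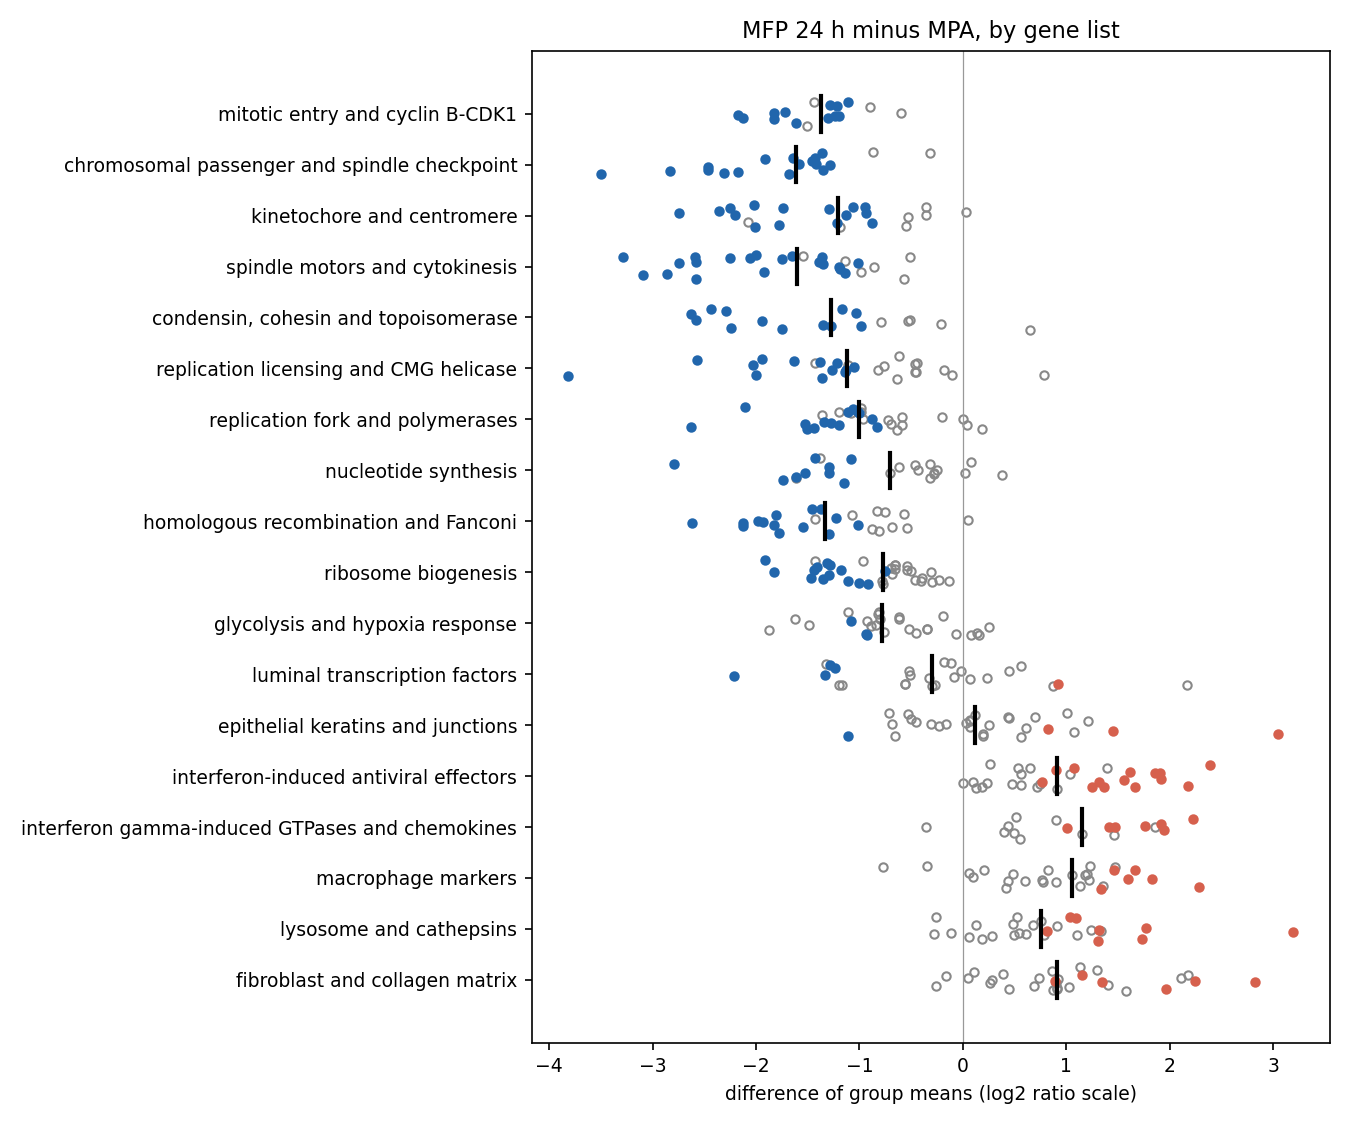
Difference between the mean of the 24 h MFP arrays and the mean of the MPA arrays (x axis, log2 ratio scale) for the genes of 18 lists (y axis). Each point is a gene, blue where it fell and red where it rose at an adjusted p under 0.05, open otherwise, and the bar is the list median. The 5 mitotic lists have medians between -1.61 and -1.20, and the interferon, macrophage, lysosome and fibroblast lists lie mostly above 0.

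The chromosomal passenger complex corrects faulty attachments of chromosomes to the spindle, and 3 of its subunits were among the clearest falls. Its kinase Aurkb read -0.11 and 0.10 in the MPA arrays and -3.62 and -3.39 in the 24 h arrays, an 11.3-fold lower mean (log2 difference -3.50 ± 0.21 (SE), adjusted p = 9e-05). Both 24 h arrays lay more than 3 log2 units below both MPA arrays. Cdca8 (borealin), which targets the complex to the centromere, read -0.16 and 0.14 in the MPA arrays and -2.99 and -2.69 in the 24 h arrays and differed by -2.83 ± 0.27 (SE), adjusted p = 0.00063. Incenp, the scaffold on which the kinase is activated, was at -2.30 and -2.64 at 24 h (-2.46 ± 0.26 (SE), adjusted p = 0.0009). Sgo2a, a shugoshin that shields centromeric cohesin, was at -2.49 and -2.45 (-2.47 ± 0.25 (SE), adjusted p = 0.00074). These 4 genes kept their calls with any 1 of the 4 arrays left out.

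Among spindle genes, Kif2c, a kinesin that depolymerises microtubule ends, read 0.011 and -0.011 in the MPA arrays and -3.34 and -3.24 in the 24 h arrays (difference -3.29 ± 0.35 (SE), adjusted p = 0.00096). Aspm, which focuses spindle poles, read -0.081 and 0.076 in the MPA arrays and -3.57 and -2.62 in the 24 h arrays (-3.09 ± 0.39 (SE), adjusted p = 0.002). The kinesin Kif18b, which acts on growing microtubule ends, was at -3.18 and -2.31 (-2.74 ± 0.35 (SE), adjusted p = 0.0021). In none of these 3 did the groups overlap. Kif23, a motor of the central spindle in cytokinesis, differed by -2.87 ± 0.71 (SE), adjusted p = 0.034, and its call was lost with any 1 of the 4 arrays left out (adjusted p from 0.08 to 0.15). On the chromosome side, Cenpa, the histone that marks centromeres, differed by -2.74 ± 0.41 (SE), adjusted p = 0.0041, and the Ndc80 complex subunit Spc25 by -2.35 ± 0.25 (SE), adjusted p = 0.00088. Top2a, which untangles sister chromatids, was at -3.24 and -2.03 (-2.63 ± 0.40 (SE), adjusted p = 0.0044), and the condensin core subunit Smc2 at -2.65 and -1.96 (-2.29 ± 0.28 (SE), adjusted p = 0.0017). The mitotic kinase Cdk1 was at -2.54 and -1.19 (-1.83 ± 0.39 (SE), adjusted p = 0.018) and its partner Cks1b, which also serves in degrading p27, at -2.20 and -2.15 (-2.17 ± 0.30 (SE), adjusted p = 0.0026). No call remained for Cdk1 without MPA replicate 2 (adjusted p = 0.087), and Cdk1 without MFP 24 h replicate 1 (adjusted p = 0.051).

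Replication genes fell as well, with smaller medians. Of 26 genes for origin licensing and the replicative helicase 13 fell (median -1.13; 9, 8, 8 and 10 with 1 array left out). Fork and polymerase genes fell for 14 of 29 (median -1.01; 7, 9, 8 and 6), nucleotide synthesis genes for 9 of 23 (median -0.70; 6, 8, 5 and 7), and homologous recombination and Fanconi genes for 14 of 24 (median -1.33; 9, 13, 11 and 13). In these 4 lists 0 genes rose. Cdc6, which loads the helicase onto origins, read -0.018 and 0.018 in the MPA arrays and -4.44 and -3.20 in the 24 h arrays, a 14.1-fold lower mean (log2 difference -3.82 ± 0.44 (SE), adjusted p = 0.0013). It was the deepest of the 764 falls. Cdc7, the kinase that fires origins, was at -2.43 and -2.76 (-2.57 ± 0.44 (SE), adjusted p = 0.0069). Gmnn (geminin), which blocks a second round of licensing, was at -2.27 and -1.83 (-2.00 ± 0.37 (SE), adjusted p = 0.0095).

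At the fork, the primase subunit Prim1 read -0.26 and 0.22 in the MPA arrays and -2.70 and -2.59 in the 24 h arrays (-2.62 ± 0.27 (SE), adjusted p = 0.00074), and the leading-strand polymerase Pole differed by -2.11 ± 0.32 (SE), adjusted p = 0.004. Both subunits of ribonucleotide reductase, which makes deoxyribonucleotides, fell: Rrm2 differed by -2.79 ± 0.39 (SE), adjusted p = 0.0028, and Rrm1 by -1.74 ± 0.25 (SE), adjusted p = 0.0035. Of the repair genes, Brca1 was at -2.13 and -1.91 (-1.98 ± 0.32 (SE), adjusted p = 0.0053) and the Fanconi ubiquitin-conjugating enzyme Ube2t at -2.29 and -1.97 (-2.13 ± 0.27 (SE), adjusted p = 0.0021). Xrcc3 differed by -2.13 ± 0.28 (SE), adjusted p = 0.0024, but by 0.13 (adjusted p = 0.8) when only probe sets of the plain kind were used. The calls of the single genes in this paragraph held with any 1 of the 4 arrays left out, as did those of Cdc7 and Gmnn.

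Of 23 genes for G1 cyclins, their kinases and E2F factors 7 fell and 1 rose (median -0.69; 2, 4, 7 and 3 falls with 1 array left out). The repressive E2F members E2f7 (-1.44 ± 0.21 (SE), adjusted p = 0.0037) and E2f8 (-1.73 ± 0.33 (SE), adjusted p = 0.011) were among the falls, as was the pocket protein Rbl1, p107 (-1.42 ± 0.23 (SE), adjusted p = 0.0059). The G1 kinase Cdk6 was the rise (1.14 ± 0.30 (SE), adjusted p = 0.042). Of 20 CDK inhibitors and quiescence genes limma called 0 at 24 h, and the gene with the smallest p was Gas2 (-0.78 ± 0.25 (SE), adjusted p = 0.082). Cdkn1a (p21), a CDK inhibitor, read -0.21 and 0.18 in the MPA arrays and 0.55 and 0.39 in the 24 h arrays (difference 0.48 ± 0.23 (SE), adjusted p = 0.24), with both 24 h arrays above both MPA arrays. Leave-out fits lost E2f8 and Cdk6 without MPA replicate 1 (adjusted p = 0.06 and 0.21), Cdk6 without MPA replicate 2 (adjusted p = 0.062), and Cdk6 without MFP 24 h replicate 2 (adjusted p = 0.22).

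Steps between 12 h and 24 h were called in mitotic lists, and the difference between lists was not tested. The 24 h and 12 h arrays share no MPA array in their contrast, and across all genes 106 (0.583%) were lower and 357 (1.96%) higher at 24 h than at 12 h. From 12 h to 24 h 13 of 26 spindle genes fell further (median -1.22), as did 7 of 18 passenger and checkpoint genes (median -0.90), 3 of 22 kinetochore genes, 2 of 16 mitotic entry genes and 1 of 17 condensin and cohesin genes. Kinetochore and condensin lists each had 5 genes below MPA at 12 h already (medians -0.61 and -0.80), while the spindle list had 0 (median -0.41). Of 26 licensing genes, 29 fork genes and 33 ribosome biogenesis genes 0 fell and 0 rose over the same interval (limma), with medians of 0.06, 0.11 and 0.34. The spindle count was 9 with either 24 h array left out and 5 with either 12 h array left out, while the median stayed between -1.37 and -1.13 under those 4 settings. After quantile normalization the count was 1 (median -1.02), and with the hepatocyte list mean as a covariate it was 0 (median -1.71).

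Kif2c lay -0.31 from MPA at 12 h and -3.29 at 24 h (step -2.98, adjusted p = 0.0014). Aspm moved from -0.46 to -3.09 (adjusted p = 0.0044 for the step) and Aurkb from -1.10 to -3.50 (adjusted p = 0.00041). Cdc6 was already at -3.68 at 12 h, against -3.82 at 24 h (adjusted p = 0.92). Rrm2 was at -3.01 and then -2.79, and Cdc7 at -3.05 and then -2.57. At 48 h the spindle list had 13 genes below MPA (median -1.02) against 6.02% of all genes, and from 24 h to 48 h 2 of its 26 genes rose. The liver list had returned to -0.25 and -0.72 in the 48 h arrays.

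**Figure D3:**
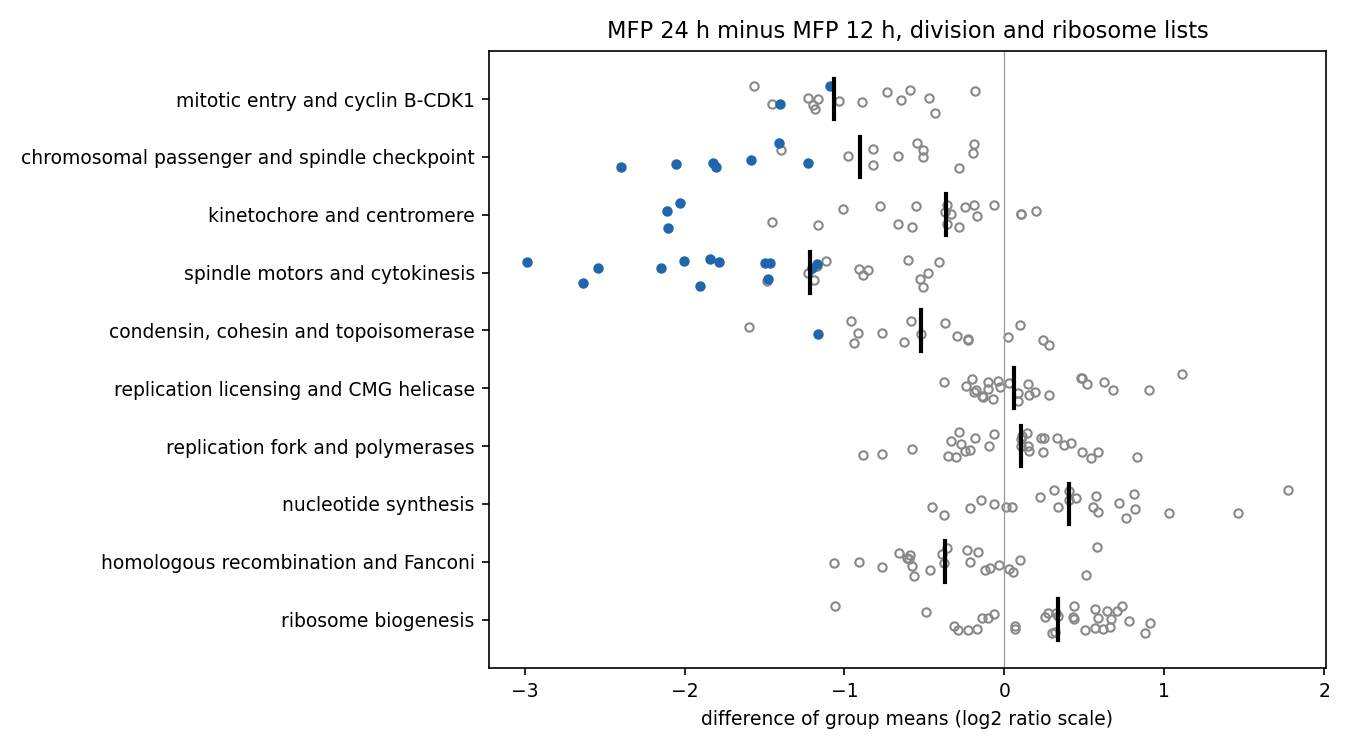
Difference between the 24 h and the 12 h MFP arrays (x axis, log2 ratio scale) for the genes of 10 lists for division and ribosome biogenesis (y axis). Blue points fell at an adjusted p under 0.05, open points did not pass, and bars are list medians. Blue points lie in the 5 mitotic lists, with 13 of them among spindle genes, and the licensing and fork lists centre near 0 (0.06 and 0.11).

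Promoters of these genes are shown because the CHR and E2F elements named above can be read in them. The windows run from 250 bases before to 50 bases after the RefSeq start of a gene (GRCm38.p6), and 14452 of the tested genes have one. Positions count from the annotated start, which is 0. The stretches below cover Kif18b at chr11:102925105-102925244 (minus strand), Aspm at chr1:139454653-139454792 (plus strand) and Cdca8 at chr4:124936898-124937037 (minus strand), 3 mitotic genes that fell between 12 h and 24 h. Capitals mark TTTGAA, the CHR core, which starts at 3 in Kif18b, 6 in Aspm and 13 in Cdca8.
Kif18b: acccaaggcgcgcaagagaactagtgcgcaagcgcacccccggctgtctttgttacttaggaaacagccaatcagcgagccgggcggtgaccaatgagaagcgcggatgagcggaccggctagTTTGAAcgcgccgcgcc
Aspm: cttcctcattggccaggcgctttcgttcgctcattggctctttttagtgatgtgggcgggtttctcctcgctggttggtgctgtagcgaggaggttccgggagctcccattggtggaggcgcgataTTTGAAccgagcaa
Cdca8: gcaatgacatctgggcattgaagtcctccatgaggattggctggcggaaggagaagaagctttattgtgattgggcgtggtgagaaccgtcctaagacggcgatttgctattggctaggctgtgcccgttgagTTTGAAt
The next stretches are Cdc6 at chr11:98908001-98908150 (plus strand) and Mcm3, a helicase subunit, at chr1:20820285-20820432 (minus strand), both below MPA at 12 h and at 24 h (Mcm3 at -2.54 and -2.03, adjusted p = 0.016 at 24 h). Capitals mark the E2F motif TTTNNCGC on either strand, at -138 in Cdc6 and 19 in Mcm3.
Cdc6: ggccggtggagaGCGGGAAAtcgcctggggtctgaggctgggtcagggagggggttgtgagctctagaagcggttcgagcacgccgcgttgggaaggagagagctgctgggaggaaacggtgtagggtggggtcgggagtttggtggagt
Mcm3: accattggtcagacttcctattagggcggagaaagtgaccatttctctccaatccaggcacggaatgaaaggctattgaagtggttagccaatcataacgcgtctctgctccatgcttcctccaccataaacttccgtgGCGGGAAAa
For Mcm3 the 24 h call did not hold when either MPA replicate 2 or MFP 24 h replicate 1 was taken out (adjusted p = 0.078 and 0.066).

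TTTGAA on either strand was in the windows of 20 of 23 spindle genes (87%), 8 of 15 passenger and checkpoint genes (53.3%), 7 of 12 condensin, cohesin and topoisomerase genes (58.3%) and 5 of 21 licensing genes (23.8%), against 15.7% of the tested genes. TTTNNCGC was in 11 of 21 licensing genes (52.4%), 10 of 24 fork genes (41.7%) 4 of 23 spindle genes (17.4%) and 6 of 12 condensin, cohesin and topoisomerase genes (50%), against 8.24% of the tested genes. Ribosome biogenesis genes had TTTGAA in 4 of 28 windows and TTTNNCGC in 4 of 28 (14.3% each). These are letter matches in short windows and no binding was measured.

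**Figure D4:**
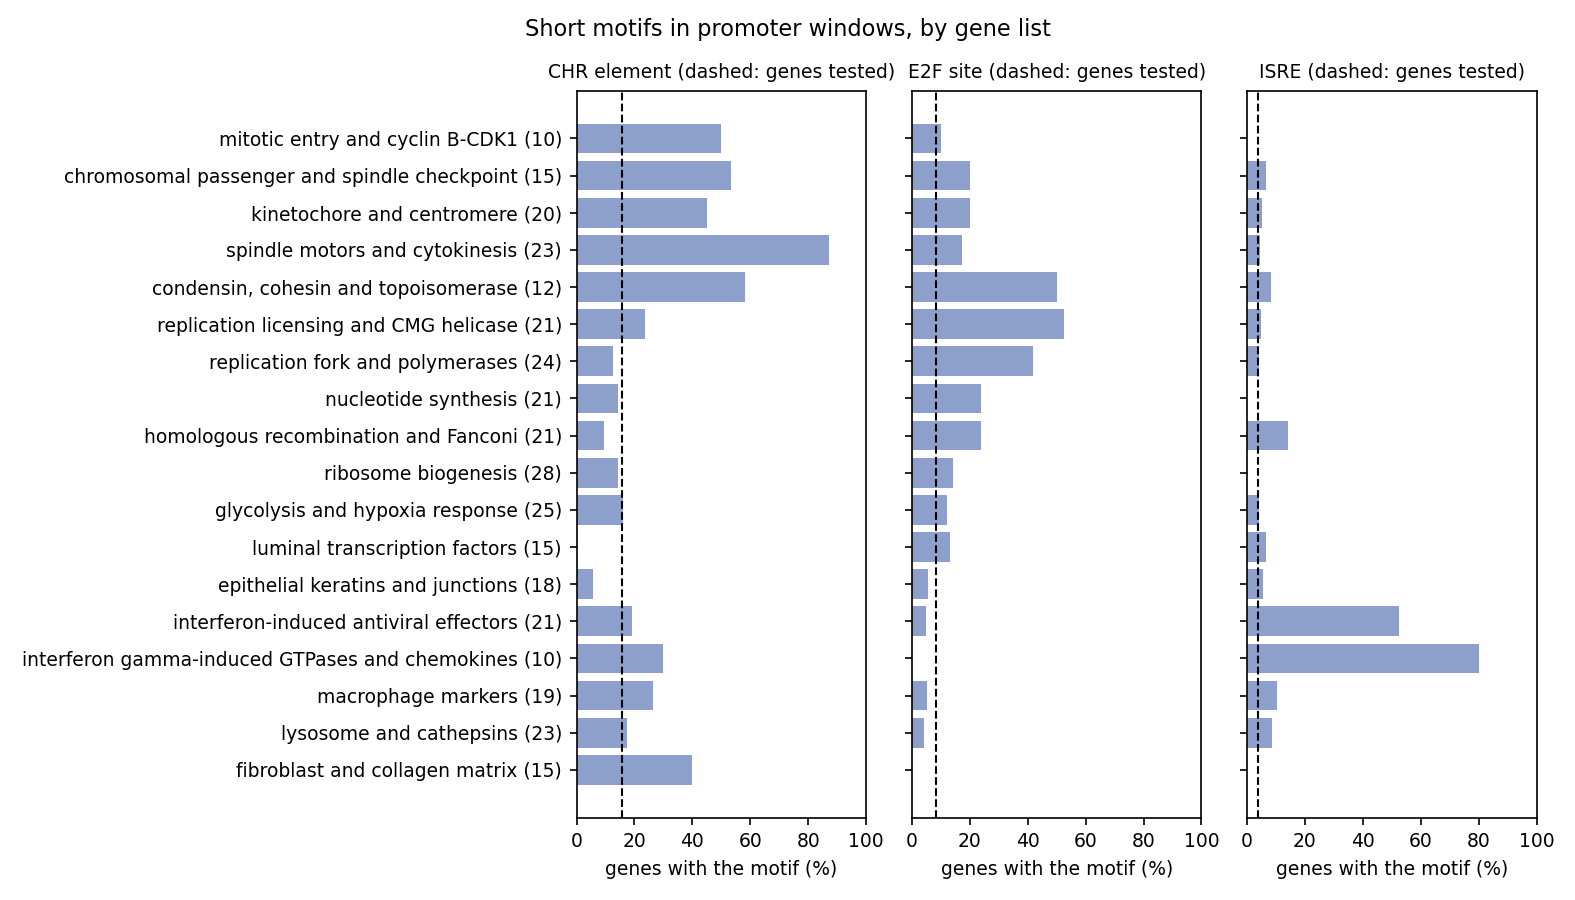
Share of genes (x axis, percent) whose promoter window holds the CHR core, the E2F motif or the interferon-stimulated response element (ISRE), by gene list (y axis, number of genes with a window in brackets). Dashed lines give the share over the tested genes: 15.7%, 8.24% and 3.63%. Spindle genes reach 87% for the CHR core, licensing genes 52.4% for the E2F motif and interferon gamma-induced genes 80% for the ISRE.

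Transcripts for building ribosomes were lower too. Of 33 ribosome biogenesis genes 14 fell and 0 rose (median -0.77; 5, 10, 9 and 8 with 1 array left out), against a median of -1.30 at 12 h. Nolc1, a nucleolar scaffold, read 0.0096 and -0.0097 in the MPA arrays and -2.08 and -1.75 in the 24 h arrays (-1.92 ± 0.36 (SE), adjusted p = 0.011) and was at -2.25 at 6 h and -2.66 at 12 h. Nop10, a core protein of the H/ACA particles that guide pseudouridylation of ribosomal RNA, was at -1.73 and -1.17 (-1.44 ± 0.25 (SE), adjusted p = 0.0077). Myc, whose product drives ribosome synthesis, read 0.047 and -0.049 in the MPA arrays and -1.46 and -1.49 in the 24 h arrays (-1.47 ± 0.29 (SE), adjusted p = 0.013). Both 24 h arrays lay below both MPA arrays for all 3 genes. The other 12 measured genes of the MYC network gave 0 calls. Among 27 tRNA synthetases and translation factors 3 fell (1, 0, 1 and 0). The threshold was missed for Nolc1 and Myc without MPA replicate 1 (adjusted p = 0.057 and 0.066), and Myc without MFP 24 h replicate 2 (adjusted p = 0.063).

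Of 24 heat shock and cochaperone genes 5 fell and 2 rose (median -0.54; 0, 2, 2 and 1 falls). The mitochondrial chaperonin Hspd1 differed by -1.23 ± 0.24 (SE), adjusted p = 0.013 and the small heat shock protein Hspb8 by 1.03 ± 0.24 (SE), adjusted p = 0.026. Of 17 one-carbon and serine synthesis genes 2 fell (1, 1, 1 and 3). Shmt2, the mitochondrial serine enzyme that feeds folate-bound carbon, read -0.0025 and 0.0025 in the MPA arrays and -1.45 and -1.47 in the 24 h arrays (-1.46 ± 0.20 (SE), adjusted p = 0.0028). In the ER stress and ATF4 list 1 of 22 passed: Ddit4 (REDD1), an inhibitor of mTORC1 that glucocorticoids induce, read 0.035 and -0.035 in the MPA arrays and -1.96 and -2.39 in the 24 h arrays (-2.17 ± 0.25 (SE), adjusted p = 0.0013), after -0.69 at 12 h (step adjusted p = 0.011). Not past the threshold were Hspd1 and Hspb8 without MPA replicate 1 (adjusted p = 0.07 and 0.061), Hspb8 without MPA replicate 2 (adjusted p = 0.11), Hspb8 without MFP 24 h replicate 1 (adjusted p = 0.055), and Hspd1 and Hspb8 without MFP 24 h replicate 2 (adjusted p = 0.059 and 0.12).

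Hormone-related genes held some of the deepest single falls with calls in both directions. Of 23 genes that glucocorticoids and progestins both induce 4 fell (3, 4, 3 and 3) and 2 rose (2, 4, 2 and 2), 1 of the rises being the liver enzyme Tat, which was set apart. Zbtb16 (PLZF), a transcription factor gene that responds strongly to both hormones, read 0.35 and -0.47 in the MPA arrays and -2.43 and -3.46 in the 24 h arrays, a 7.4-fold lower mean (-2.89 ± 0.40 (SE), adjusted p = 0.0027). Rgs2, a brake on G protein signalling, read 0.059 and -0.061 in the MPA arrays and -3.13 and -3.16 in the 24 h arrays (-3.14 ± 0.20 (SE), adjusted p = 9e-05) and had been at -1.59 at 12 h (step adjusted p = 0.0024). Fkbp5, a cochaperone of steroid receptors, was at -1.09 and -1.05 (-1.04 ± 0.26 (SE), adjusted p = 0.035). The rise outside the liver rule was Glul, glutamine synthetase (1.69 ± 0.27 (SE), adjusted p = 0.0056). Whether liver RNA had a part in the rise of Glul was not tested. With 1 array left out, calls were lost for Fkbp5 without MPA replicate 1 (adjusted p = 0.21), Fkbp5 without MFP 24 h replicate 1 (adjusted p = 0.096), and Fkbp5 without MFP 24 h replicate 2 (adjusted p = 0.13).

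Of the receptors, by the probe set that stood for each gene, 1 fell and 0 outside the organ rule rose. Esr1, the estrogen receptor gene, read 0.24 and -0.29 in the MPA arrays and -1.35 and -1.76 in the 24 h arrays (-1.53 ± 0.24 (SE), adjusted p = 0.0048). It was at -0.28 at 12 h, and the step to 24 h passed the test (adjusted p = 0.019). Pgr, the receptor that MFP blocks, read -0.17 and 0.15 in the MPA arrays and 1.16 and 0.80 in the 24 h arrays, above both MPA arrays in both, with a difference of 0.99 ± 0.29 (SE), adjusted p = 0.062 that missed the threshold. The 3 Pgr probe sets differed by 0.917 to 1.41, and 1 of them was called higher when all probe sets were tested. Over 19 steroid and nuclear receptor genes 1 rose and 1 fell. The rise was Pgrmc1, which was set apart by its liver correlation.

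Of 18 progesterone effectors 2 fell (1, 0, 2 and 0 with 1 array left out) and 1 rose (1, 0, 1 and 0). Cited1, a transcriptional coregulator of luminal cells, read -1.19 and 0.64 in the MPA arrays and -2.29 and -2.68 in the 24 h arrays (-2.21 ± 0.49 (SE), adjusted p = 0.022), a difference that was 0.0405 with the hepatocyte list mean as a covariate. Ccnd1, the D-type cyclin that links the receptor to G1, differed by -1.15 ± 0.24 (SE), adjusted p = 0.016. Hand2, known as a progesterone target in the uterus, differed by 0.97 ± 0.22 (SE), adjusted p = 0.025 and had a liver correlation of 0.79, close to the rule. The paracrine mediators of progesterone were not called: Tnfsf11 (RANKL) read -0.45 and 0.34 in the MPA arrays and -0.20 and 0.033 in the 24 h arrays (-0.03 ± 0.28 (SE), adjusted p = 0.97), and Wnt4 read -0.13 and 0.12 in the MPA arrays and 0.29 and -1.05 in the 24 h arrays (-0.38 ± 0.39 (SE), adjusted p = 0.63), its 24 h arrays lying on either side of the MPA arrays. The call was lost for Ccnd1 without MPA replicate 1 (adjusted p = 0.057), Cited1, Ccnd1 and Hand2 without MPA replicate 2 (adjusted p = 0.059, 0.062 and 0.11), and Cited1, Ccnd1 and Hand2 without MFP 24 h replicate 2 (adjusted p = 0.12, 0.089 and 0.13).

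Among 25 estrogen-responsive genes 3 fell (0, 2, 2 and 0) and 3 rose (3, 3, 5 and 3). Nrip1, a corepressor of nuclear receptors, read -0.015 and 0.015 in the MPA arrays and 1.33 and 1.65 in the 24 h arrays (1.49 ± 0.23 (SE), adjusted p = 0.0049) and was at 1.53 at 12 h. Igfbp4, which binds insulin-like growth factors, rose by 2.39 (adjusted p = 0.0085) with a liver correlation of 0.65. The luminal factors Foxa1 (-1.33 ± 0.34 (SE), adjusted p = 0.039) and Tfap2a (-1.24 ± 0.29 (SE), adjusted p = 0.027) fell. In all, 4 of 25 luminal transcription factors fell and 1 rose (median -0.30; 1, 4, 4 and 0 falls with 1 array left out). No call remained for Foxa1 and Tfap2a without MPA replicate 1 (adjusted p = 0.21 and 0.15), and Foxa1 and Tfap2a without MFP 24 h replicate 2 (adjusted p = 0.23 and 0.15).

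**Figure D5:**
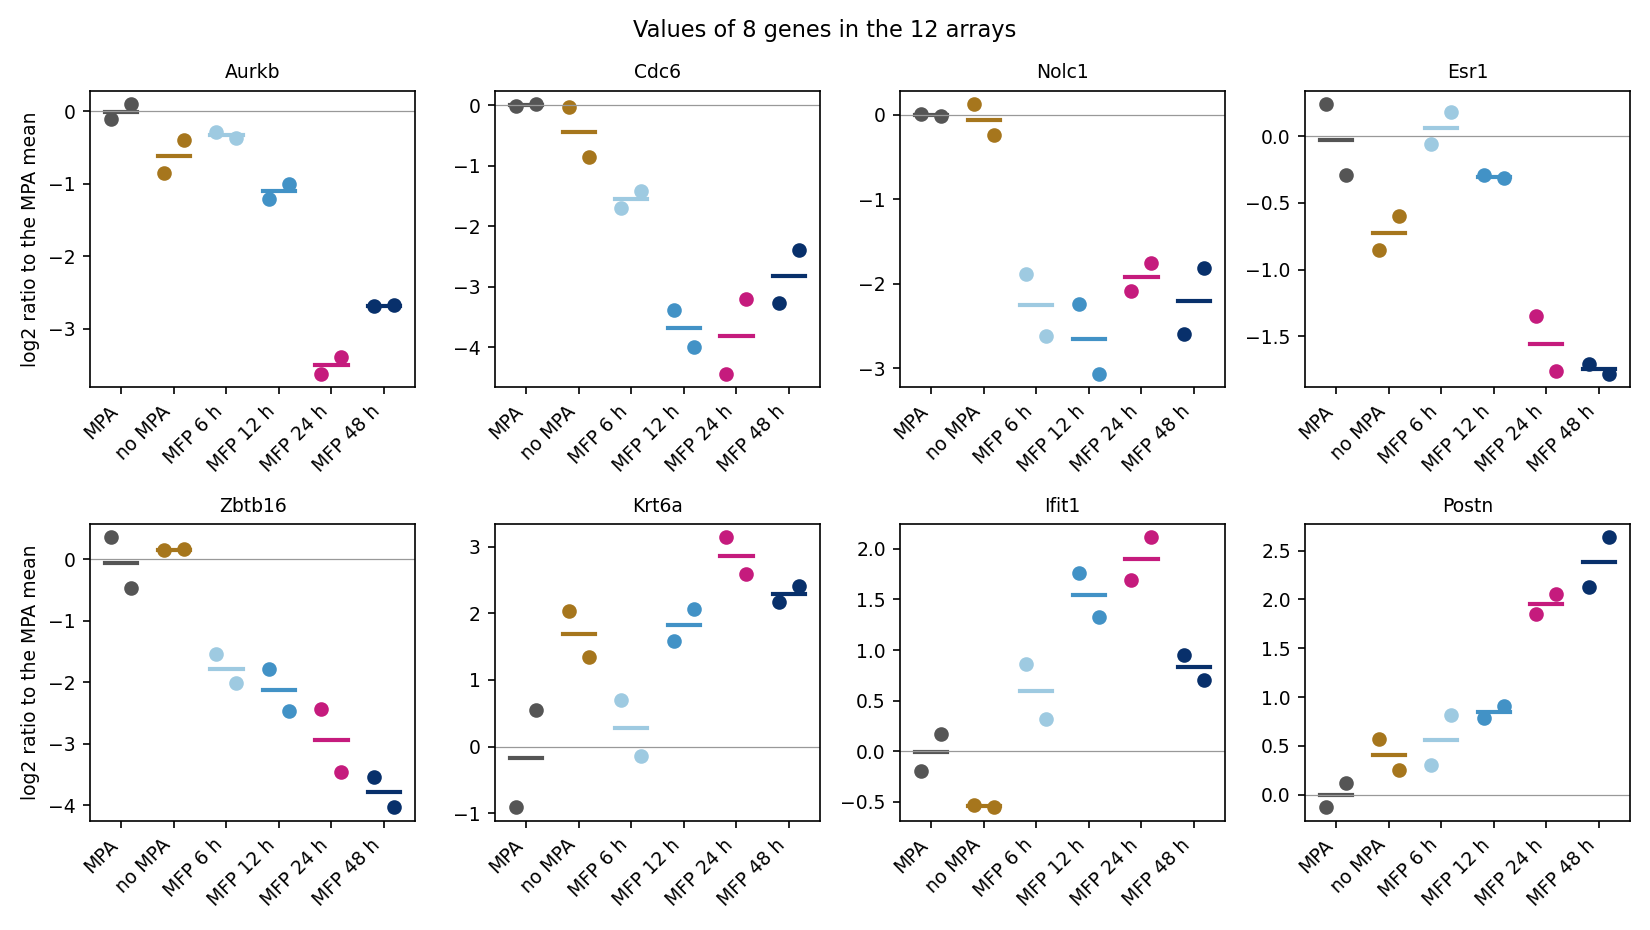
Log2 ratio to the MPA mean (y axis) of 8 genes in each of the 12 arrays (points), with the mean of each group's 2 arrays as a line and the groups on the x axis. Cdc6 and Nolc1 are low from 6 h, Aurkb and Esr1 are lower at 24 h than at 12 h (steps of -2.40 and -1.25), and Krt6a, Ifit1 and Postn are above the MPA arrays at 24 h.

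Epithelial structure genes were largely uncalled, with 3 of 29 keratin and junction genes higher (2, 2, 3 and 2) and 1 lower (median 0.11, turning to -0.032 without MFP 24 h replicate 1). Krt6a, a keratin of wounded and hyperproliferative epithelium, read -0.91 and 0.55 in the MPA arrays and 3.14 and 2.60 in the 24 h arrays, an 8.26-fold higher mean (3.05 ± 0.47 (SE), adjusted p = 0.0045). Its "no MPA" arrays read 2.03 and 1.35, also above both MPA arrays. The tight junction gene Cldn4 read -0.19 and 0.16 in the MPA arrays and 1.60 and 1.28 in the 24 h arrays (1.45 ± 0.23 (SE), adjusted p = 0.0049) and was at 1.56 at 12 h. Krt8, a luminal keratin that serves as a marker of the carcinoma cells, read 0.015 and -0.015 in the MPA arrays and 0.51 and 0.37 in the 24 h arrays (0.44 ± 0.26 (SE), adjusted p = 0.35), above both MPA arrays in both but not past the test. The desmosomal plakophilin Pkp2 fell (-1.11 ± 0.22 (SE), adjusted p = 0.014). Leave-out fits lost Pkp2 without MPA replicate 1 (adjusted p = 0.06), Pkp2 without MPA replicate 2 (adjusted p = 0.05), and Pkp2 without MFP 24 h replicate 2 (adjusted p = 0.084).

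Ligands and receptors of epithelial growth factors changed one by one. Epgn (epigen), a ligand of the EGF receptor, read -1.01 and 0.59 in the MPA arrays and 3.22 and 3.22 in the 24 h arrays, a 10.8-fold higher mean (3.43 ± 0.60 (SE), adjusted p = 0.0074). Nrg1, a ligand of ERBB3 and ERBB4, read -0.08 and 0.076 in the MPA arrays and -2.29 and -2.87 in the 24 h arrays (-2.58 ± 0.44 (SE), adjusted p = 0.007) and had been at -2.88 at 12 h. Egfr differed by 1.81 ± 0.39 (SE), adjusted p = 0.02 and Fgfr4 by 1.34 ± 0.24 (SE), adjusted p = 0.0079, with liver correlations of 0.75 for both, close to the rule. In the list of 32 growth factor ligands and receptors 5 rose, fewer with any 1 array left out, and 1 fell. Igf1 and Fgf1, among the rises, were set apart by the organ rule. The Notch ligand Jag1 fell (-1.55 ± 0.29 (SE), adjusted p = 0.011), 1 of 3 falls among 36 WNT and Notch genes (1, 1, 2 and 0 with 1 array left out). The threshold was missed for Egfr without MPA replicate 1 (adjusted p = 0.06), Egfr without MPA replicate 2 (adjusted p = 0.086), and Nrg1, Egfr and Jag1 without MFP 24 h replicate 2 (adjusted p = 0.052, 0.11 and 0.054).

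Of 30 antiviral effectors 14 rose and 0 fell (median 0.91; 7, 17, 10 and 7 with 1 array left out), and 0 of the 30 were set apart. Of 17 GTPases and chemokines that interferon gamma induces 7 rose and 0 fell (median 1.15; 1, 9, 4 and 3). The share of rises over all genes was 4.55%. With the hepatocyte list mean as a covariate 0 of 30 and 0 of 17 passed, with a median of 1.13 for the antiviral list. Against the "no MPA" arrays, which share only the 24 h arrays with this comparison, 16 of 30 and 9 of 17 rose, where 5.02% of all genes did. At 12 h 10 of 30 and 3 of 17 were above MPA (1.66% of all genes), and at 48 h 8 of 30 and 2 of 17 were (6.47%). Neither list had a call between 12 h and 24 h (0 and 0).

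Ifit1, which binds viral RNA lacking host caps, read -0.20 and 0.17 in the MPA arrays and 1.70 and 2.11 in the 24 h arrays (1.92 ± 0.27 (SE), adjusted p = 0.0027). Cmpk2, a nucleotide kinase encoded beside the antiviral gene Rsad2, read -0.18 and 0.16 in the MPA arrays and 2.17 and 2.17 in the 24 h arrays (2.18 ± 0.31 (SE), adjusted p = 0.0029). Trim30a was at 1.81 and 1.94 (1.90 ± 0.25 (SE), adjusted p = 0.0023) and Ifit2 at 1.95 and 2.53 (2.39 ± 0.37 (SE), adjusted p = 0.0047). For all 4 the 24 h arrays lay above both MPA arrays, and the calls held with any 1 array left out. Ubd (FAT10), a ubiquitin-like modifier, rose by 2.22 (adjusted p = 0.0026). Gbp2, a guanylate-binding protein, differed by 1.76 ± 0.34 (SE), adjusted p = 0.012, and the chemokine Cxcl11 by 1.94 ± 0.37 (SE), adjusted p = 0.012. Not past the threshold were Gbp2 and Cxcl11 without MPA replicate 1 (adjusted p = 0.067 and 0.077). The sensor Cgas, which makes the messenger that activates STING, went the other way at -1.36 and -1.54 (-1.45 ± 0.22 (SE), adjusted p = 0.0041). Of 25 interferon receptors and regulators 1 rose (0, 1, 5 and 0) and 2 fell.

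The ISRE, to which the interferon-activated factor ISGF3 and IRF proteins bind, can be read close to the start of 3 of these genes. The stretches cover Ifit1 at chr19:34640739-34640888 (plus strand), Gbp2 at chr3:142620513-142620662 (plus strand) and Trim30a at chr7:104465194-104465343 (minus strand). Capitals mark a pair of GAAA separated by any 2 bases, on either strand, at -104 and -85 in Ifit1, -59 in Gbp2 and -36 in Trim30a.
Ifit1: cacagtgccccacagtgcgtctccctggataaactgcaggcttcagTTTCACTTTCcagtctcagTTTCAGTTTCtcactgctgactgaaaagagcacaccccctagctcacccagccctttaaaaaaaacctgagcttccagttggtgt
Gbp2: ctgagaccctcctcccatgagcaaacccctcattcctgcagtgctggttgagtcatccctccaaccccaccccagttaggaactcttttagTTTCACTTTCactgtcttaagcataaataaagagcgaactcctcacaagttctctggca
Trim30a: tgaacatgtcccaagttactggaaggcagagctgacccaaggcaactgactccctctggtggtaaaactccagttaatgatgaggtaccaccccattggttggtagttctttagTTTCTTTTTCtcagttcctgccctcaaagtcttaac
The motif was in the windows of 11 of 21 antiviral genes (52.4%) and 8 of 10 interferon gamma-induced genes (80%), against 3.63% of the tested genes.

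The MPA arrays differed from each other in leukocyte genes. The median of 27 macrophage markers was -0.81 and 0.52 in the MPA arrays and 0.45 and 1.12 in the 24 h arrays, so the ranges overlap. At 24 h 6 of 27 rose and 0 fell, and the count with 1 array left out was 0, 16, 4 and 0. At 48 h 21 of 27 were above MPA. Genes of Kupffer cells and liver endothelium also rose at 24 h (5 of 15). The share of liver macrophages in the macrophage, chemokine, lysosome and MHC class I rises at 24 h was not tested. Mpeg1, the pore-forming perforin-2 of macrophages, read -0.58 and 0.41 in the MPA arrays and 1.72 and 1.77 in the 24 h arrays (1.83 ± 0.34 (SE), adjusted p = 0.0099). The macrophage marker Adgre1 (F4/80) read -0.79 and 0.51 in the MPA arrays and 1.55 and 1.50 in the 24 h arrays (1.67 ± 0.40 (SE), adjusted p = 0.031). With 1 array left out, calls were lost for Mpeg1 and Adgre1 without MPA replicate 1 (adjusted p = 0.059 and 0.17), Adgre1 without MFP 24 h replicate 1 (adjusted p = 0.086), and Mpeg1 and Adgre1 without MFP 24 h replicate 2 (adjusted p = 0.054 and 0.12).

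Of 28 chemokines and receptors 6 rose and 0 fell (1, 7, 7 and 1 with 1 array left out). Ccl3 (MIP-1 alpha) read -0.21 and 0.18 in the MPA arrays and 2.65 and 2.87 in the 24 h arrays (2.77 ± 0.35 (SE), adjusted p = 0.0021), with both 24 h arrays more than 2 log2 units above both MPA arrays, and its call held with any 1 array left out. The monocyte attractants Ccl2 (2.16 ± 0.48 (SE), adjusted p = 0.022) and Ccl7 (2.23 ± 0.43 (SE), adjusted p = 0.012) rose as well. The call was lost for Ccl2 and Ccl7 without MPA replicate 1 (adjusted p = 0.12 and 0.066), and Ccl2 and Ccl7 without MFP 24 h replicate 2 (adjusted p = 0.13 and 0.082). Lysosomal genes rose for 8 of 27 (3, 10, 6 and 1), among them the acid lipase Lipa (1.77 ± 0.30 (SE), adjusted p = 0.0069) and the protease Ctsb (1.73 ± 0.34 (SE), adjusted p = 0.013). No call remained for Lipa and Ctsb without MFP 24 h replicate 2 (adjusted p = 0.052 and 0.086). T, NK and B cell markers gave 1 rise in 25 (0, 1, 3 and 0) and neutrophil markers 1 in 14 (0, 1, 0 and 1). MHC class I genes gave 2 in 13 (0, 2, 1 and 0), the class I heavy chain H2-K1 (1.24 ± 0.23 (SE), adjusted p = 0.01) and its loading factor Tapbp (0.90 ± 0.22 (SE), adjusted p = 0.029). Leave-out fits lost H2-K1 and Tapbp without MPA replicate 1 (adjusted p = 0.058 and 0.16), Tapbp without MFP 24 h replicate 1 (adjusted p = 0.076), and H2-K1 and Tapbp without MFP 24 h replicate 2 (adjusted p = 0.072 and 0.12).

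Stroma showed the same split between the MPA arrays. The median of 29 fibroblast and collagen genes was -0.91 and 0.55 in the MPA arrays and 0.86 and 0.71 at 24 h, with 6 rises and 0 falls (1, 18, 2 and 3 with 1 array left out) and 23 above MPA at 48 h. Postn (periostin), a matrix protein of activated fibroblasts, read -0.13 and 0.12 in the MPA arrays and 1.85 and 2.06 in the 24 h arrays (1.96 ± 0.25 (SE), adjusted p = 0.0022), and its call held with any 1 array left out. Thbs1 (thrombospondin-1) read -1.77 and 0.77 in the MPA arrays and 2.54 and 2.12 in the 24 h arrays (2.83 ± 0.75 (SE), adjusted p = 0.044). Mmp14, a membrane-bound matrix protease, was at 1.43 and 1.22 (1.34 ± 0.24 (SE), adjusted p = 0.0085), and Acta2, the smooth muscle actin of myoepithelium and myofibroblasts, at 2.18 and 2.01 (2.49 ± 0.64 (SE), adjusted p = 0.04). The threshold was missed for Thbs1, Mmp14 and Acta2 without MPA replicate 1 (adjusted p = 0.23, 0.06 and 0.21), Thbs1 and Acta2 without MFP 24 h replicate 1 (adjusted p = 0.13 and 0.11), and Thbs1 and Acta2 without MFP 24 h replicate 2 (adjusted p = 0.13 and 0.14). Of 26 endothelial and pericyte genes 1 rose (1, 5, 1 and 1), Prox1, which hepatocytes also express and which was set apart.

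Of 24 involution and STAT3 genes 7 rose (5, 9, 6 and 2 with 1 array left out) and 0 fell, 2 of the 7 being acute phase genes of liver that were set apart. Clu (clusterin), a secreted chaperone typical of involuting epithelium, was at 1.87 and 2.25 (2.27 ± 0.41 (SE), adjusted p = 0.0094), and Lbp, the binding protein for bacterial lipopolysaccharide, differed by 1.96 ± 0.34 (SE), adjusted p = 0.0076. Lbp was also a member of the complement and acute phase list. Of its 2 probe sets 1 was called, and the lower one differed by -0.002. Whether liver RNA had a part in the rise of Lbp was not tested. For the cell death lists that follow, the share of rises over all genes was 4.55%. Of 24 BCL2 family and caspase genes 2 rose (1, 2, 3 and 1): Casp12, an inflammatory caspase, at 2.32 and 2.14 (2.23 ± 0.37 (SE), adjusted p = 0.0059) and the caspase inhibitor Xiap (1.12 ± 0.27 (SE), adjusted p = 0.032), which read -0.089 (adjusted p = 0.888) on plain probe sets. Of 26 p53 targets 1 rose (0, 0, 0 and 1), Gadd45a (1.97 ± 0.51 (SE), adjusted p = 0.039). The milk genes gave 3 rises in 21 (1, 5, 9 and 1), with Pigr, the receptor that carries antibodies across epithelium, at 2.39 and 2.47 (2.44 ± 0.37 (SE), adjusted p = 0.0043). Not past the threshold were Xiap and Gadd45a without MPA replicate 1 (adjusted p = 0.16 and 0.063), Xiap and Gadd45a without MPA replicate 2 (adjusted p = 0.056 and 0.17), Gadd45a without MFP 24 h replicate 1 (adjusted p = 0.16), and Clu, Lbp and Xiap without MFP 24 h replicate 2 (adjusted p = 0.062, 0.052 and 0.19).

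Of 28 genes for cholesterol and fatty acid synthesis 4 fell and 1 rose at 24 h (median -0.49; 1, 4, 1 and 4 falls). Idi1, which makes the isoprenoid dimethylallyl diphosphate, read 0.23 and -0.28 in the MPA arrays and -2.45 and -1.67 in the 24 h arrays (-2.04 ± 0.43 (SE), adjusted p = 0.018), against -4.03 at 12 h, and the step upward passed (adjusted p = 0.039). Fasn, fatty acid synthase, read 0.0011 and -0.0011 in the MPA arrays and -0.99 and -0.91 in the 24 h arrays (-0.95 ± 0.18 (SE), adjusted p = 0.011) and was at -1.19 at 12 h and -1.14 at 48 h. Liver makes much of these enzymes, and the rise of the desaturase Scd1 (1.49 ± 0.41 (SE), adjusted p = 0.049) went with a liver correlation of 0.54. With 1 array left out, calls were lost for Idi1 without MPA replicate 1 (adjusted p = 0.11), Scd1 without MPA replicate 2 (adjusted p = 0.23), Idi1 and Scd1 without MFP 24 h replicate 1 (adjusted p = 0.08 and 0.065), and Scd1 without MFP 24 h replicate 2 (adjusted p = 0.23).

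Of 26 glycolysis and hypoxia genes 3 fell (4, 0, 2 and 0 with 1 array left out), although the list median was -0.78 at 24 h against -0.01 at 12 h. The median turned to 0.488 with the hepatocyte list mean as a covariate. The glycolytic enzymes Pgk1 (-1.08 ± 0.23 (SE), adjusted p = 0.017) and Tpi1 (-0.94 ± 0.19 (SE), adjusted p = 0.016) were among them. Hif3a, a hypoxia-inducible factor subunit, read -0.14 and 0.13 in the MPA arrays and -2.51 and -3.29 in the 24 h arrays (-2.90 ± 0.31 (SE), adjusted p = 0.00099), after -0.70 at 12 h (step adjusted p = 0.0038). Fatty acid oxidation genes rose for 4 of 17 (2, 2, 3 and 1). Of these the nuclear receptor Ppara (3.31 ± 0.22 (SE), adjusted p = 9e-05) was set apart, and the peroxisomal enzyme Ehhadh (1.78 ± 0.32 (SE), adjusted p = 0.0083) had a liver correlation of 0.73, close to the rule. The call was lost for Pgk1 and Tpi1 without MPA replicate 2 (adjusted p = 0.081 and 0.073), and Pgk1, Tpi1 and Ehhadh without MFP 24 h replicate 2 (adjusted p = 0.096, 0.093 and 0.053).

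The 10 largest rises outside the organ rule ran from 3.05 (Krt6a) to 4.66 (2210407C18Rik). Slc1a2, a glutamate transporter of astrocytes and of perivenous hepatocytes, read -0.0034 and 0.0033 in the MPA arrays and 3.36 and 5.23 in the 24 h arrays (4.30 ± 0.64 (SE), adjusted p = 0.004) with a liver correlation of 0.73, and its 48 h arrays averaged 0.40 above MPA. The monoamine oxidase Maob (3.44 ± 0.80 (SE), adjusted p = 0.026) and the claudin Cldn2 (3.18 ± 0.58 (SE), adjusted p = 0.0096) had liver correlations of 0.77 and 0.79. These 3 lie close to the rule. Ctse (cathepsin E) differed by 3.20 ± 0.77 (SE), adjusted p = 0.03, the immunoglobulin kappa locus Igk by 3.66 ± 0.95 (SE), adjusted p = 0.04, the calcium-activated channel regulator Clca3a2 by 3.44 ± 0.86 (SE), adjusted p = 0.034 and Gm6377 by 3.32 ± 0.53 (SE), adjusted p = 0.0053. No call remained for 2210407C18Rik, Maob, Ctse and Igk without MPA replicate 1 (adjusted p = 0.05, 0.12, 0.18 and 0.23), Maob and Clca3a2 without MPA replicate 2 (adjusted p = 0.073 and 0.17), Maob without MFP 24 h replicate 1 (adjusted p = 0.06), and 2210407C18Rik, Maob, Cldn2, Ctse, Igk and Clca3a2 without MFP 24 h replicate 2 (adjusted p = 0.052, 0.12, 0.066, 0.18, 0.23 and 0.2).

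The 10 largest falls ran from -2.87 (Kif23) to -3.82 (Cdc6), and 5 of the 10 were division genes already described. Agtr1a, the type 1 angiotensin II receptor, read 0.42 and -0.60 in the MPA arrays and -3.04 and -3.22 in the 24 h arrays, an 8.25-fold lower mean (-3.04 ± 0.33 (SE), adjusted p = 0.00099). Mip, the aquaporin known from lens fibres, read 0.35 and -0.46 in the MPA arrays and -2.73 and -3.72 in the 24 h arrays (-3.17 ± 0.41 (SE), adjusted p = 0.0022) and was at -0.0045 at 12 h (step adjusted p = 0.0024). In both genes the 24 h arrays lay more than 2 log2 units below both MPA arrays, and both calls held with any 1 array left out.

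The neighbouring times gave fewer calls. From 12 h to 24 h 98 of the 357 rises and 106 of the 106 falls, as the rule itself makes likely, were outside the organ rule. The largest of those rises were Aldh2, an aldehyde dehydrogenase (5.27, adjusted p = 0.00046), the transcription factor Zic1 (3.60, adjusted p = 0.0084) and Igfbp1, a secreted binding protein made by liver (3.53, adjusted p = 0.028), with liver correlations of 0.69, 0.68 and 0.74. The largest falls were Cdcp3 (-3.79, adjusted p = 0.045), Mip and Kif2c. From 24 h to 48 h 427 genes changed (2.35%), 113 higher (0.621%) and 314 lower (1.73%), of which 113 and 83 were outside the rule. The leading rises were the WNT modulator Sfrp2, the matrix protein Efemp1 and the chemokine Ccl6, at -0.68, -0.43 and -0.77 from MPA at 24 h and 2.91, 3.02 and 2.46 at 48 h (adjusted p = 0.013, 0.012 and 0.012 for the step). The leading falls were Slc1a2, Cdo1 and Zic1 (adjusted p = 0.011, 0.0017 and 0.012).

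Setting 24 h of MFP against the "no MPA" arrays gave 1551 calls (8.53%), 914 of them rises (5.02%) and 637 falls (3.5%), 620 and 636 of them outside the organ rule. Spindle genes fell for 18 of 26 in that contrast, passenger and checkpoint genes for 13 of 18, licensing genes for 10 of 26 and ribosome biogenesis genes for 12 of 33. The 24 h arrays are the same in both contrasts, so the counts stand side by side and are not independent.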

How the data were processed

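RNA from formalin-fixed C4-HD tumours was measured on 12 arrays in 6 groups of 2. Per the submitters' processing notes, the authors made the deposited values with GCRMA. The deposited log2 values of 45101 probe sets proved to be relative to the average MPA array, so signal over background is unknown here. Per the platform annotation, 34945 probe sets have 1 gene symbol, 932 several and 9160 none. The most variable probe set by SD over the 12 arrays stood for each of 18193 genes. This choice can favour the probe set with the larger change. Several probe sets exist for 117 of the 184 named genes past the threshold. With all probe sets tested, 54 of the 117 had only 1 called, and 0 had a probe set called in the opposite direction. Some had an uncalled probe set of the opposite sign, for example Brca1 (0.494), Top2a (0.157), Fgfr4 (-0.199) and Egfr (-0.128). One limma model (version 3.58.1, R 4.3.3) with a mean per group and empirical Bayes moderation (6 residual and 4.21 prior degrees of freedom) gave every contrast, two-sided, with Benjamini-Hochberg adjustment over all 18193 genes and a threshold of 0.05. Every adjusted p in the text is from limma.

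Members and gene lists (60, with 1353 of 1460 entries measured) were chosen with earlier results of these data known. Genes named are the 10 largest rises and falls outside the organ rule, the leading called genes of each list, a few fixed hormone and cycle genes, and the 3 leading genes each way between neighbouring times. In the text a few further genes are named from the list that they belong to. Alternatives were other probe set rules, normalizations, filters, models, an organ covariate and leaving out each array. On simulated data for 24 h against MPA (18193 genes, 200 changed), 22.5%, 79.4% and 93.5% of genes changed by 1, 2 and 3 log2 units were recovered, and 5.75% of calls were false. These shares hold for the simulated setting, with 200 changed genes against 1591 called in the data. They do not give the false share of the 1591 calls. Promoter windows are from RefSeq (GRCm38.p6). The number of arrays limits the precision.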

Additional observations from a re-analysis of the deposited data

Results flagged for a closer look

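Transcripts differed between neighbouring MFP times, by the contrast between the times themselves. Between 12 h and 24 h 463 genes changed, and between 24 h and 48 h 427. Only 204 and 196 of these were outside the organ rule, so the totals are not read as an effect of MFP on the tumour. Among the genes named, the 24 h minus 12 h difference (log2) was negative and past the threshold for the mitotic genes Aurkb (-2.40), Kif2c (-2.98), Aspm (-2.63), Cdca8 (-2.05), Sgo2a (-1.82), Incenp (-1.58), Cenpa (-2.11) and Kif18b (-2.15). It was negative as well for Mip (-3.16), Rgs2 (-1.55), Hif3a (-2.20), Ddit4 (-1.48), Esr1 (-1.25) and the WNT receptor Fzd7 (-1.33). It was positive for Cldn2 (3.19), Fabp2 (2.17), Idi1 (1.99), Hand2 (1.04), Igfbp4 (2.03) and Egfr (2.23). Another 25 named genes with such a difference were set apart by the rule for liver, pancreas and muscle. Fabp2 was not, but is a member of the kidney and intestine list. Control probe sets outside the main measurement also moved: the 3′ minus 5′ difference averaged 0.429 for Actb and 0.486 for Gapdh in the 24 h arrays, against -0.00945 and 0.0235 in the MPA arrays.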

How the results depend on the processing

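No paired analysis was possible because the labels give the arrays no replicate numbers, and numbers in accession order pair nothing. The count at 24 h against MPA (1591) was 28 after quantile normalization, 117 from the 4 arrays alone, 980 with array weights and 43 with the hepatocyte list mean as a covariate, which kept 27 of the 1591 calls and turned the sign of 30. Leaving out 1 array gave 687 (MFP 24 h replicate 2) to 1610 (MFP 24 h replicate 1), with 751 without MPA replicate 1. From 12 h to 24 h (463) the count was 11 after quantile normalization, 94 without the set-apart genes and 193 to 916 with 1 array left out: 193 and 211 for the 12 h arrays, 247 for MFP 24 h replicate 2 and 916 for its replicate 1. From 24 h to 48 h (427) it was 0, 96 and 254 to 427, 254 when MFP 48 h replicate 1 was left out and 273 for MFP 24 h replicate 2. Against "no MPA" (1551) it was 125 after quantile normalization and 543 to 1553 with 1 array left out, with 543 and 569 without either "no MPA" array and 598 without MFP 24 h replicate 2.

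The sign of the median turned under at least 1 setting in 17 of 60 lists. With the covariate the medians became -0.0872 (exocrine pancreas, from 3.78), 0.173 (p53 targets), 0.172 (CDK inhibitors), -0.217 (skeletal muscle), 0.0850 (kidney and intestine) and 0.488 (glycolysis), and the differences -0.158 (Hamp), -1.29 (Pzp), -1.50 (Fga), 0.0405 (Cited1), -0.0521 (Saa1) and -0.904 (Cps1). The kidney and intestine median was 1.66 with the SD filter and -0.165 to 0.0133 with 1 array left out, and that of progesterone effectors -0.0164 to 0.193. Without MFP 24 h replicate 1 the medians were 0.117 (ER stress), -0.0371 (glucocorticoid targets) and -0.0324 (keratins), without MFP 24 h replicate 2 -0.110 (erythroid) and without MPA replicate 1 -0.0349 (MHC class I). On plain probe sets Xrcc3 was 0.131 and Xiap -0.0888. An alternative chosen after seeing the data, like that without both 48 h arrays, left out genes correlated above 0.6 with an organ list. It took out 480 of the 827 rises and, as the rule makes likely, 0 of the 764 falls. The count at 24 h was then 1056, with 331 higher and 725 lower. The medians were -0.0395 (growth factors), -0.0490 (BCL2 family) and -0.0534 (interferon regulators). The cause of these changes was not tested. Of 184 named calls, 79 held without each of the 4 arrays in turn.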
